A study of Mus musculus with 6 samples.

Results

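Leukocytes leave the blood in steps. They roll on selectins, stop when their integrins bind immunoglobulin-family ligands on the endothelium, and then cross the vessel wall. E-selectin (Sele) and P-selectin (Selp) are the endothelial selectins, Icam1, Icam2 and Vcam1 are the integrin ligands, and Ackr1 is an atypical chemokine receptor that carries chemokines across venular endothelium. Of the integrin chains, Itgal (CD11a) and Itgam (CD11b) each pair with Itgb2 (CD18) to form LFA-1 and Mac-1, which bind Icam1, and Itga4 is the alpha chain of VLA-4, which binds Vcam1. Itgam is also a common marker of microglia, and Vcam1 is known outside the endothelium, for example on fibroblasts and some macrophages.

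These 10 genes were taken by symbol from the 32285 genes of a single-cell RNA sequencing count matrix, and all 10 were found once. The cells were live non-neuronal cells of mouse cortex after permanent middle cerebral artery occlusion (pMCAO), a stroke model without reperfusion. The 6 labelled groups were the contralateral cortex and the ipsilateral cortex at 1, 12 and 24 h, with 1 library per group. All mice were males of 8 to 12 weeks with the genotype RGS5::GFP het, in which GFP replaces 1 allele of Rgs5, a pericyte gene, so every group shared this heterozygous loss and no group had 2 intact alleles. The libraries carry only the numbers 1 to 6, and no source used here ties a number to a hemisphere or a time. The cells were therefore described as 1 pooled sample, the value of each numbered library was given beside the pooled one, and no test between groups was possible. No value was used to guess a library's condition. The 24 h libraries were sequenced on another instrument than the others, which cannot be told apart from time.

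The 6 libraries held 12427757 to 40793772 unique molecular identifiers (UMIs, counted transcripts) over all barcodes. They gave 1221 to 5873 cells each and 17357 in all, with a median of 5338 UMIs per cell. Clusters were named from marker genes that include none of the 10 genes. The largest classes were microglia-like (7951 cells), oligodendrocyte-like (2814), endothelial-like (2663), astrocyte-like (1167) and pericyte-like cells (888). Smaller classes were monocyte-derived macrophage-like (376), perivascular macrophage-like (258), smooth muscle-like (257), neutrophil-like (178), T and NK lymphocyte-like (95), B lymphocyte-like (55) and fibroblast-like cells (31). The rest were neuroblast-like (341) and choroid plexus-like cells (22) and 261 cells left unnamed. Defining markers were high in the classes they name, with levels in CPM, the UMIs of a gene scaled to a total of 1000000 UMIs over the pooled cells of a class. Pecam1 stood at 691 CPM in endothelial-like cells and at 15.6 in microglia-like cells, and Pdgfrb at 1419 in pericyte-like and 3.25 in endothelial-like cells. The perivascular macrophage-like class is less clean: its leading genes were Cd74 and other antigen-presentation genes, and 117 of its 258 cells fell in a dendritic cell-like subcluster, so its main values are also given by subcluster below. Levels have exact 95% Poisson intervals in brackets. Ratios carry exact conditional 95% intervals, and shares of cells exact Clopper-Pearson intervals. All these intervals cover counting error only, not the difference between animals or cells.

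For Icam1, Sele and Selp, reference sequence upstream of the start site is shown, because all 3 promoters held the letters GGNNNTTCC, the core of a binding motif of NF-kB, the factor long known to act on inflammatory adhesion genes. The sequences are the last 160 bases before the RefSeq start on GRCm38.p6, plus strand, 5′ to 3′, with each match on either strand in capitals. Icam1 is at chr9:21015780-21015939, Sele at chr1:164048074-164048233 and Selp at chr1:164115104-164115263.
Icam1: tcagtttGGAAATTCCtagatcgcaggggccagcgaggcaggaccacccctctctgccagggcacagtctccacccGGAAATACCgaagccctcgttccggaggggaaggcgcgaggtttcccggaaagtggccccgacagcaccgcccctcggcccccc
Sele: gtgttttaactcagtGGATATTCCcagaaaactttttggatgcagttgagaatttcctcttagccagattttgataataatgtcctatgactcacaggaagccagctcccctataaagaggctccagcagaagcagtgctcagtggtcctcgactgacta
Selp: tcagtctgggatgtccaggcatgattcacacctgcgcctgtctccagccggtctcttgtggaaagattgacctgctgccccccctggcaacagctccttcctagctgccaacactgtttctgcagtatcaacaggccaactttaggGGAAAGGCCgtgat
The Icam1 match that begins 153 bases before the start reads on both strands, and a second begins at 84 bases. The Sele match begins at 145 bases and the Selp match at 14 bases. Of the 10 genes, 6 matched the RefSeq promoter table by symbol, and over the 250 upstream bases the letters occurred in Ackr1 (1 match, at 131 bases) and neither in Itgam nor in Itga4. Icam2, Vcam1, Itgal and Itgb2 were not among the matched entries. Of all 32851 promoters in the table, 15.66% held the letters, so a match alone separates these genes little from others. On the same build, GENCODE places Icam1 at chr9:21015985-21028817, Icam2 at chr11:106377656-106388075, Vcam1 at chr3:116109949-116129688, Sele at chr1:164048234-164057677, Selp at chr1:164115264-164150026 and Ackr1 at chr1:173331886-173333750. Itgal lies at chr7:127296260-127335138, Itgam at chr7:128062640-128118491, Itgb2 at chr10:77530252-77565708 and Itga4 at chr2:79255426-79333123. Ackr1 overlaps Cadm3, and Itgam overlaps Gm49368, on the same strand, so the UMIs of these 2 genes could be shared with their neighbours and are uncertain to that extent.

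Icam2 was the most evenly endothelial of the 10 genes. Icam2, a constitutive endothelial ligand of LFA-1, stood at 347 CPM in endothelial-like cells (337 to 358) and at 3.41 in all other cells, a ratio of 101.9 (90.9 to 114.5). An Icam2 UMI was found in 69.1% of endothelial-like cells (67.3 to 70.9), against 0.667% of microglia-like cells (0.500 to 0.871), a class that should lack the gene, at a higher median depth (5120 UMIs against 4001). Libraries 1 to 6 gave 412, 457, 336, 349, 264 and 398 CPM in endothelial-like cells. All 6 libraries held Icam2 at a high level, with library 5 lowest and library 2 highest. Among the other named classes the next Icam2 levels were 38.9 in B lymphocyte-like cells (7 UMIs) and 22.4 in T and NK lymphocyte-like cells (11 UMIs), whose intervals overlap.

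Sele, Selp and Ackr1 were sparse and unevenly spread over the libraries. Sele was counted 154 times in 39 cells, 147 times of these in 37 endothelial-like cells. Its level there was 12.6 CPM (10.6 to 14.8). In libraries 1 to 6 the Sele level in endothelial-like cells was 0, 0, 1.04, 18.6, 0 and 36.8. Libraries 4 and 6 thus held 98.0% of the endothelial Sele UMIs, and a single cell of library 6 held 26 of them. The remaining 7 Sele UMIs lay in 2 pericyte-like cells. The ratio of endothelial-like to all other cells was 169 (80.2 to 429), 345 without library 6, and 1151 when called doublets were removed. Among the 7951 microglia-like cells no Sele UMI was found, which by the floor of 3 counts allows up to 0.0377% of cells to hold one.

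Ackr1 followed a similar course over the libraries. It was counted 639 times in 53 endothelial-like cells, a level of 54.7 CPM (50.6 to 59.1), and 63 times in all other cells, a ratio of 81.8 (63.1 to 107.8). In libraries 1 to 6 its endothelial level was 0, 0, 9.34, 38.8, 8.06 and 174. Library 6 was far above the rest and libraries 1 and 2 held none in 170 and 191 endothelial-like cells. Without library 6 the ratio was 23.1. One cell of library 6 alone held 166 UMIs, and the pooled level without that cell was 40.6. All 13 Ackr1 UMIs of pericyte-like cells came from 1 cell, as did all 23 of monocyte-derived macrophage-like cells. Other classes were more spread. Neuroblast-like cells held 12 Ackr1 UMIs in 11 cells, 3.23% of the class at a level of 4.39 CPM, against 1.99% of endothelial-like cells. Astrocyte-like cells held 12 UMIs in 5 cells, with 8 of them in 1 cell. A part of the overlapping gene Cadm3 in these UMIs was not tested.

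Selp was the rarest of the 10 genes, with 84 UMIs in 36 cells. Its highest level was in neutrophil-like cells, 17.6 CPM (9.09 to 30.7) from 12 UMIs in 9 cells. Perivascular macrophage-like cells came next, at 8.47 (5.17 to 13.1) from 20 UMIs in 8 cells. Endothelial-like cells had 3.51 (2.52 to 4.76) from 41 UMIs in 10 cells, and 20 of these 41 lay in 1 cell of library 4. Without it the endothelial level was 1.80, against 0.457 in all other cells. The ratio of endothelial-like to all other cells was 7.69 (4.89 to 12.1), 4.2 without library 4 and 12.7 without library 6. P-selectin is also stored in platelets, and the platelet genes Ppbp, Pf4, Itga2b and Gp9 had 1, 3, 0 and 2 UMIs in the neutrophil-like cells. In the same order they had 15, 21, 111 and 8 UMIs in endothelial-like cells and 0, 1298, 1 and 4 in perivascular macrophage-like cells. Pf4 was also a marker that named the perivascular macrophage-like class. A platelet part in the Selp UMIs of any class was not tested. Libraries 1 to 6 had 0, 0, 3, 25, 0 and 13 Selp UMIs in endothelial-like cells, so again most came from libraries 4 and 6.

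**Figure D1:**
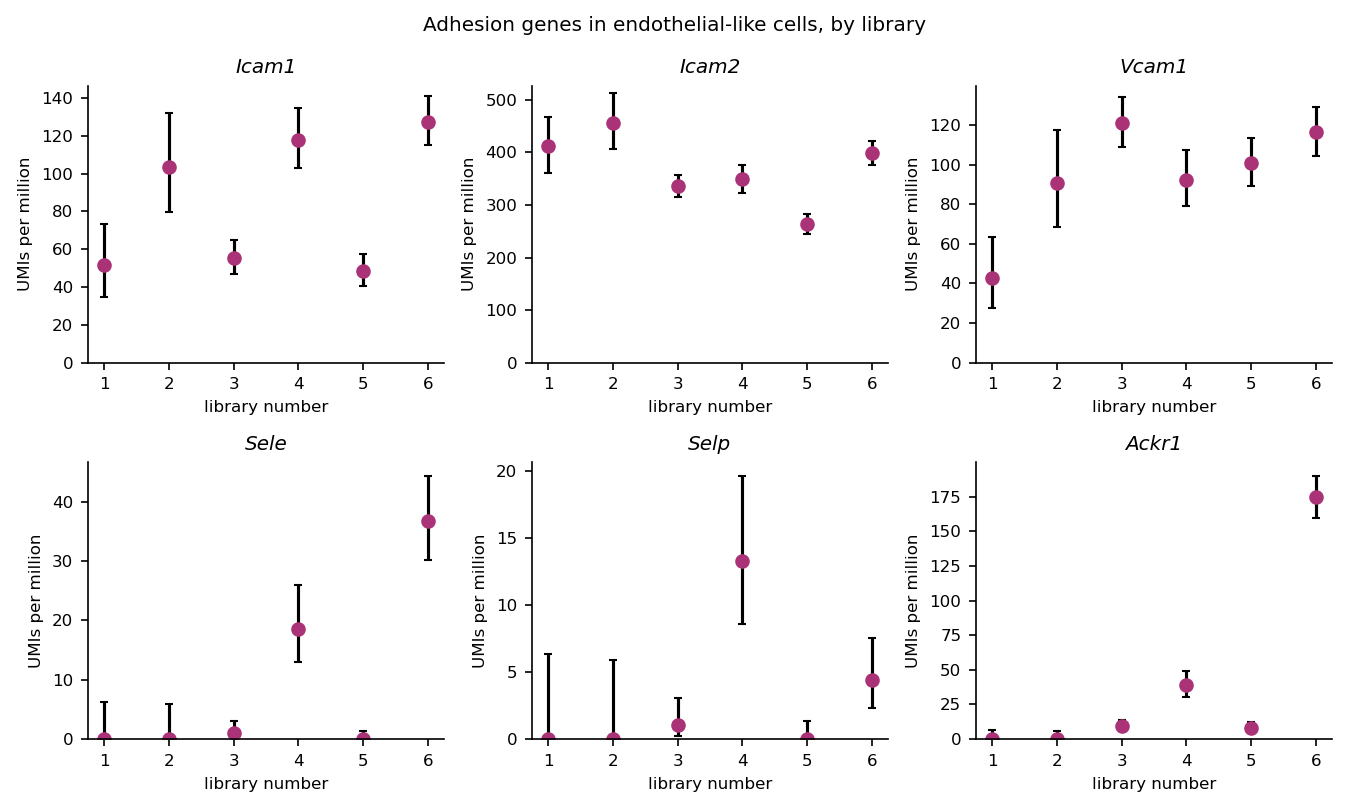
Levels of the 6 vascular genes in endothelial-like cells, in CPM (linear axis from 0), for libraries 1 to 6; points are pooled cells of a library and bars are 95% Poisson intervals (counting error only). Icam2 was found in all 6 libraries at 264 to 457, whereas Sele reached 18.6 and 36.8 in libraries 4 and 6 and at most 1.04 in the others.

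Icam1 was not mainly an endothelial transcript in these cells. Microglia-like cells stood highest, at 309.8 CPM (305 to 315), and endothelial-like cells had 84.5 (79.3 to 90.0), so that the microglial level was 3.67 times the endothelial one (3.44 to 3.91). Microglia-like cells held 84.1% of all Icam1 UMIs. An Icam1 UMI was found in 51.8% of microglia-like and 14.1% of endothelial-like cells, and in 19.7% and 5.22% when each cell was thinned to 1000 UMIs. In oligodendrocyte-like cells, which serve here as a background class of higher depth (median 8891 UMIs), the full-depth share was 2.84%. Among the named classes, below microglia-like cells came neutrophil-like (143.6), perivascular macrophage-like (127.9), T and NK lymphocyte-like (116) and fibroblast-like cells (96.1). The intervals of each of these neighbours overlap, and so do those of fibroblast-like and endothelial-like cells. Monocyte-derived macrophage-like cells had 71.2, just under endothelial-like cells with overlapping intervals.

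Endothelial Icam1 differed over the libraries, at 51.5, 103.5, 55.3, 118, 48.4 and 127.5 CPM in libraries 1 to 6. Libraries 2, 4 and 6 were all above 100 and the other 3 were near 50. Microglial Icam1 was 320.0, 269, 262, 355, 229 and 439 in the same order. In every library the microglial level exceeded the endothelial one, by 2.60 to 6.22 times.

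Vcam1 was highest in fibroblast-like cells, at 480.5 CPM (389 to 587) from only 31 cells, and 1 cell held 40 of the 95 UMIs. Astrocyte-like cells followed with 220.4 (209.7 to 231), perivascular macrophage-like cells with 199 (181 to 218), choroid plexus-like cells with 163.9 (109 to 237) and endothelial-like cells with 105 (99.2 to 111). The intervals of neighbours overlap from astrocyte-like to choroid plexus-like cells, and the lower end for choroid plexus-like cells overlaps the endothelial interval. With called doublets removed, Vcam1 in fibroblast-like cells was 285.2 from 51 UMIs, below the interval given above, against 232.1 in astrocyte-like cells. Astrocyte-like cells exceeded endothelial-like cells 2.10 times (1.95 to 2.26), and in each library by 1.67 to 4.83 times. The 2 classes held Vcam1 differently: a UMI was found in 61.5% of astrocyte-like cells (58.7 to 64.3) and in only 8.52% of endothelial-like cells (7.49 to 9.65), while the most in 1 cell was 10 in the former and 79 in the latter. Endothelial Vcam1 was 42.9, 90.8, 121, 92.5, 100.8 and 116 in libraries 1 to 6, with library 1 lowest.

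Against all other cells, 4 of the 10 genes were at least 4-fold higher in endothelial-like cells (Icam2, Sele, Ackr1 and Selp), where 6.61% of the 16908 genes with 20 or more UMIs were. Sele, with 7 UMIs in all other cells, reached 20 UMIs only through endothelial-like cells, so the filter itself favoured its place in this count. Selp fell under the 4-fold mark, at 3.449 times, when cells were thinned to 1000 UMIs, and also without the 1 cell that held 20 of its UMIs. The 3 leukocyte chains Itgal, Itgam and Itgb2 were at least 4-fold lower there, as were 27.9% of all genes. Vcam1 was 3.07 times higher (2.87 to 3.28), Itga4 was level at 1.02 times (0.884 to 1.17), and Icam1 was lower, at 0.529 times (0.495 to 0.564). The Icam1 ratio was 1.457 in library 2, from 65 endothelial UMIs, and 0.3405 to 0.6965 in the other libraries. For Vcam1 it ran from 1.22 in library 1 to 4.555 in library 6. The median ratio was 2.04 over the 10 genes and 0.750 over all genes tested.

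**Figure D2:**
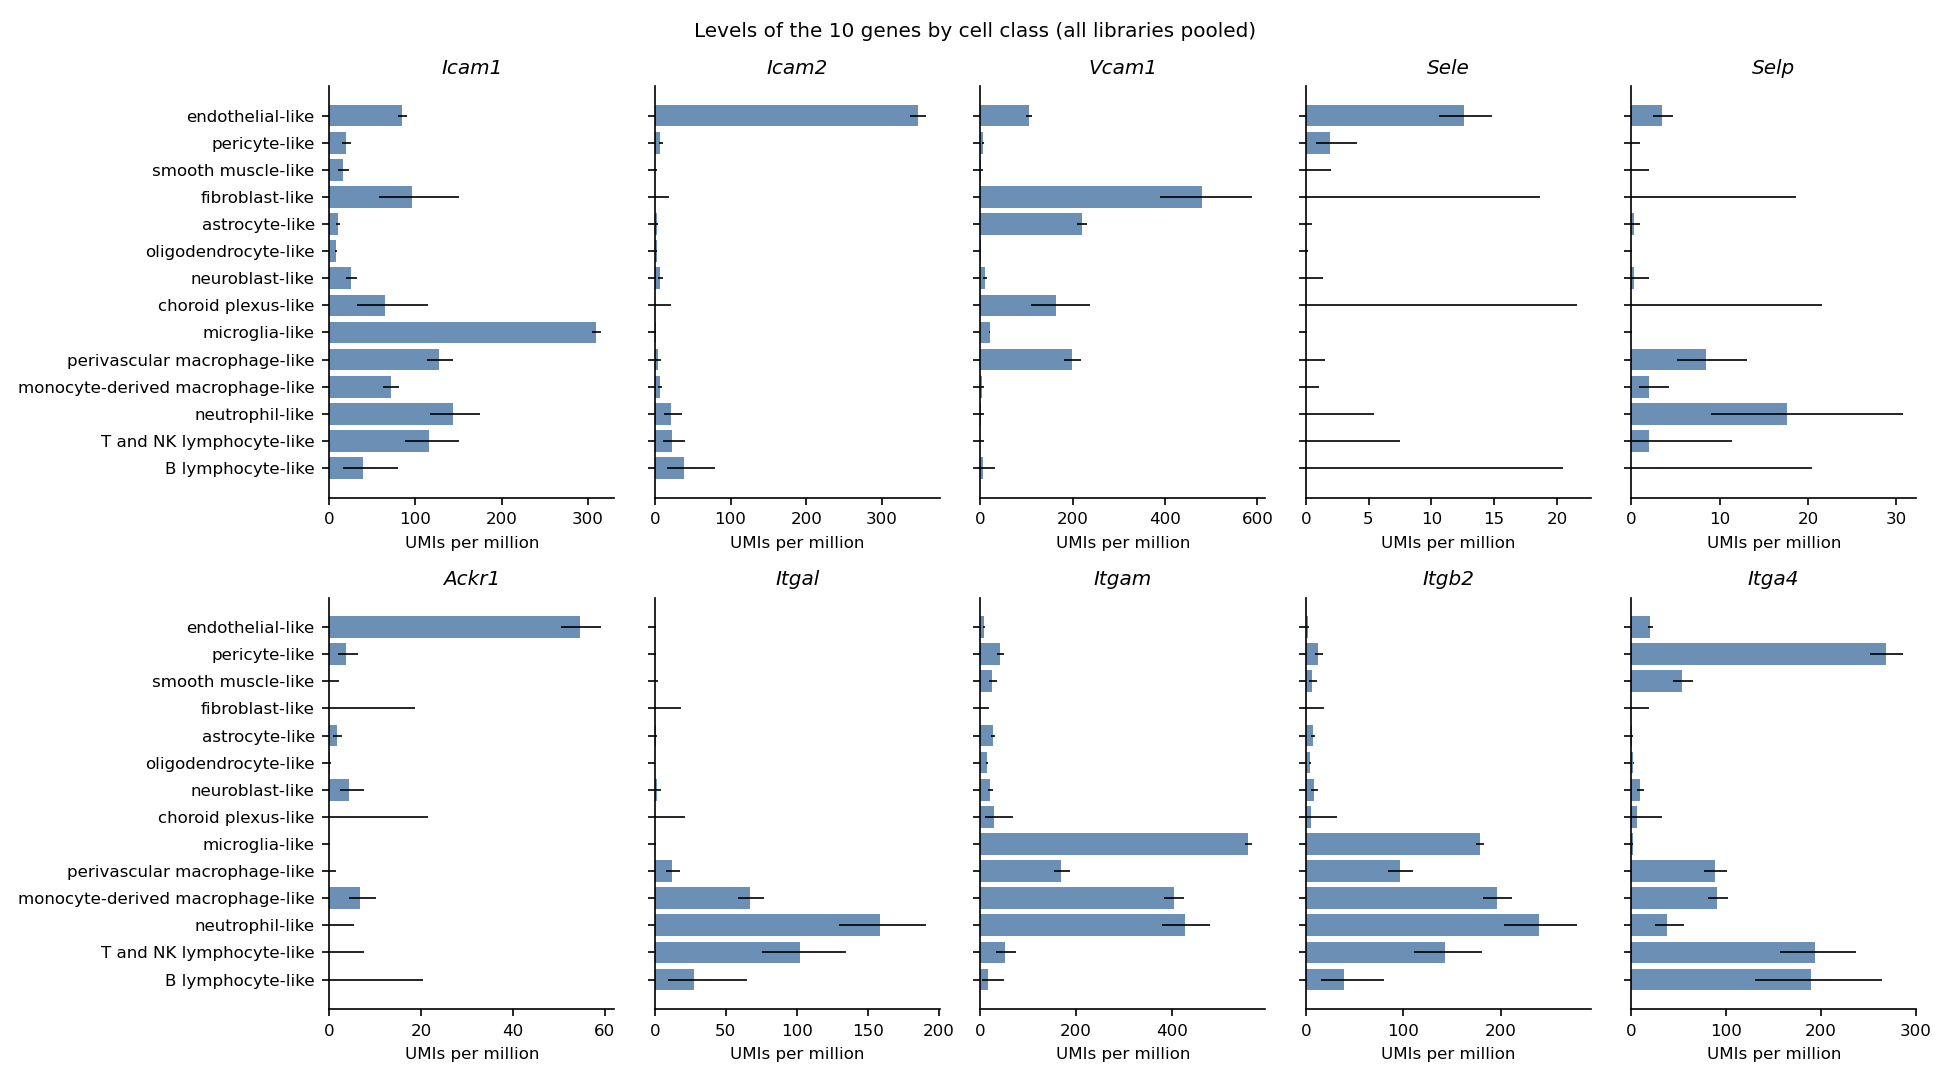
Levels of the 10 genes in 14 cell classes, in CPM (each panel with its own linear axis from 0); bars pool all libraries and lines are 95% Poisson intervals. Icam2, Sele and Ackr1 are highest in endothelial-like cells, Icam1 and Itgam in microglia-like cells, Vcam1 in fibroblast-like cells, Itga4 in pericyte-like cells, and Itgal, Itgb2 and Selp in neutrophil-like cells.

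Re-clustering the endothelial-like cells, with the 10 genes left out of the variable genes, gave 12 subclusters. Most of these cells (1853) lay in 5 subclusters in which none of the lists of vessel zones or states was raised. The others were an arterial subcluster (173 cells, led by Gkn3), a subcluster that scored for reactive and venous genes (87 cells, led by Lcn2, Lrg1 and Ackr1), 2 subclusters that scored for tip and reactive genes (438 cells, led by Apln or hemoglobin genes), and 3 that also carried genes of another cell class (112 cells). The reactive and venous cells came from every library, with 2, 5, 17, 20, 27 and 16 cells. The tip and reactive cells did not: 123 came from library 4 and 311 from library 6, and the other 4 libraries together gave 4.

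The reactive and venous subcluster had the highest Vcam1, Icam1, Ackr1 and Selp levels of the endothelial groups. Its Vcam1 level was 1064 CPM (980 to 1154), 18.6 times that of the other endothelial-like cells (16.6 to 20.8), and 79.3% of its cells had a Vcam1 UMI. Although it was a small subcluster, it held 588 of the 1226 endothelial Vcam1 UMIs. Ackr1 was 403.6 there, 10.8 times higher (9.13 to 12.7), Icam1 was 315, 4.31 times higher (3.64 to 5.08), and Selp was 43.4, from 24 UMIs in only 2 cells of library 4. These 4 of 9 genes with enough UMIs were at least 4-fold higher, where 0.957% of the 11285 genes tested within the endothelium were. Selp reached the needed 20 UMIs only through this subcluster, which held 24 of its 41 endothelial UMIs. Its place in this count was therefore favoured by the filter itself. Icam2 did not differ beyond its interval, at 0.924 times (0.791 to 1.07). Itga4 was 0.259 times (0.0531 to 0.767), from 3 UMIs.

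Vcam1 was high in the reactive and venous cells of every library, though libraries 1 and 2 gave only 2 and 5 such cells. The values for libraries 1 to 6 were 293, 539, 2144, 741, 657 and 1420 CPM, against 15.7 to 40.6 in the cells with no raised list. Icam1 in the same cells was 195, 640, 620, 339, 101 and 372. Ackr1 was 0, 0, 274, 709, 101 and 1048 in these cells, so it was seen in all 4 libraries that gave 16 or more of them.

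The tip and reactive subclusters had a different make-up. Sele was 61.9 CPM there (51.9 to 73.3), 45.3 times the level in the other endothelial-like cells (25.6 to 87.3), and 134 of the 147 endothelial Sele UMIs lay in them. In library 4 these were 33 UMIs in 4 cells and in library 6 101 UMIs in 25 cells. In the pooled cells Ackr1 was also at least 4-fold higher (7.92 times, 6.72 to 9.35). Of its 411 UMIs there, 410 were in library 6, and 1 cell of that library held 166. The level in these subclusters was 250.1 CPM in library 6 and 1.97 in library 4. The latter was below the library 4 level of all endothelial-like cells given earlier. The 4-fold mark for Ackr1 was not tested within a library. Icam1 was 176 (2.77 times, 2.43 to 3.16), and Vcam1, at 61.9, was below the other endothelial-like cells (0.539 times, 0.447 to 0.646). Those other cells include the reactive and venous and the arterial subclusters, with Vcam1 at 1064 and 262. In the subclusters with no raised list Vcam1 was 1.56 to 54.8, and the interval of the highest (44.6 to 66.7) includes 61.9. Of 9 genes, Sele and Ackr1 passed the 4-fold mark in the pooled cells, against 1.37% of all genes tested. Sele reached the UMIs needed for this count only through these subclusters, which held 134 of its 147 endothelial UMIs. The filter itself therefore favoured the place of Sele in this count. Because these subclusters came nearly all from 2 libraries, a cell state and a library cannot be told apart in the pooled ratios. Both libraries also gave other endothelial-like cells. Within library 4 the subclusters held 33 of 35 endothelial Sele UMIs, and within library 6 they held 101 of 109. For Ackr1 they held 410 of 517 endothelial UMIs in library 6, while most of the 73 in library 4 lay in other endothelial-like cells. The cause of these differences was not tested.

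The arterial subcluster held Vcam1 and Icam2 but little Icam1. Its Icam2 level was 469 CPM (426 to 515), and its Vcam1 level was 262 CPM (230 to 297), 2.87 times that of the other endothelial-like cells, while Icam1 was 28.5 (0.319 times, 0.209 to 0.467). No Sele or Ackr1 UMI was found in its 173 cells, which by the same floor allows up to 1.73% of cells to hold one, for each gene. None of 9 genes passed the 4-fold mark, as against 1.58% of all genes. Re-clustered at resolutions 0.4 and 1.2, the arterial group had Vcam1 at 137 and 136. It was larger there, with 354 cells at 0.4 and subclusters of 212 and 145 cells at 1.2.

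**Figure D3:**
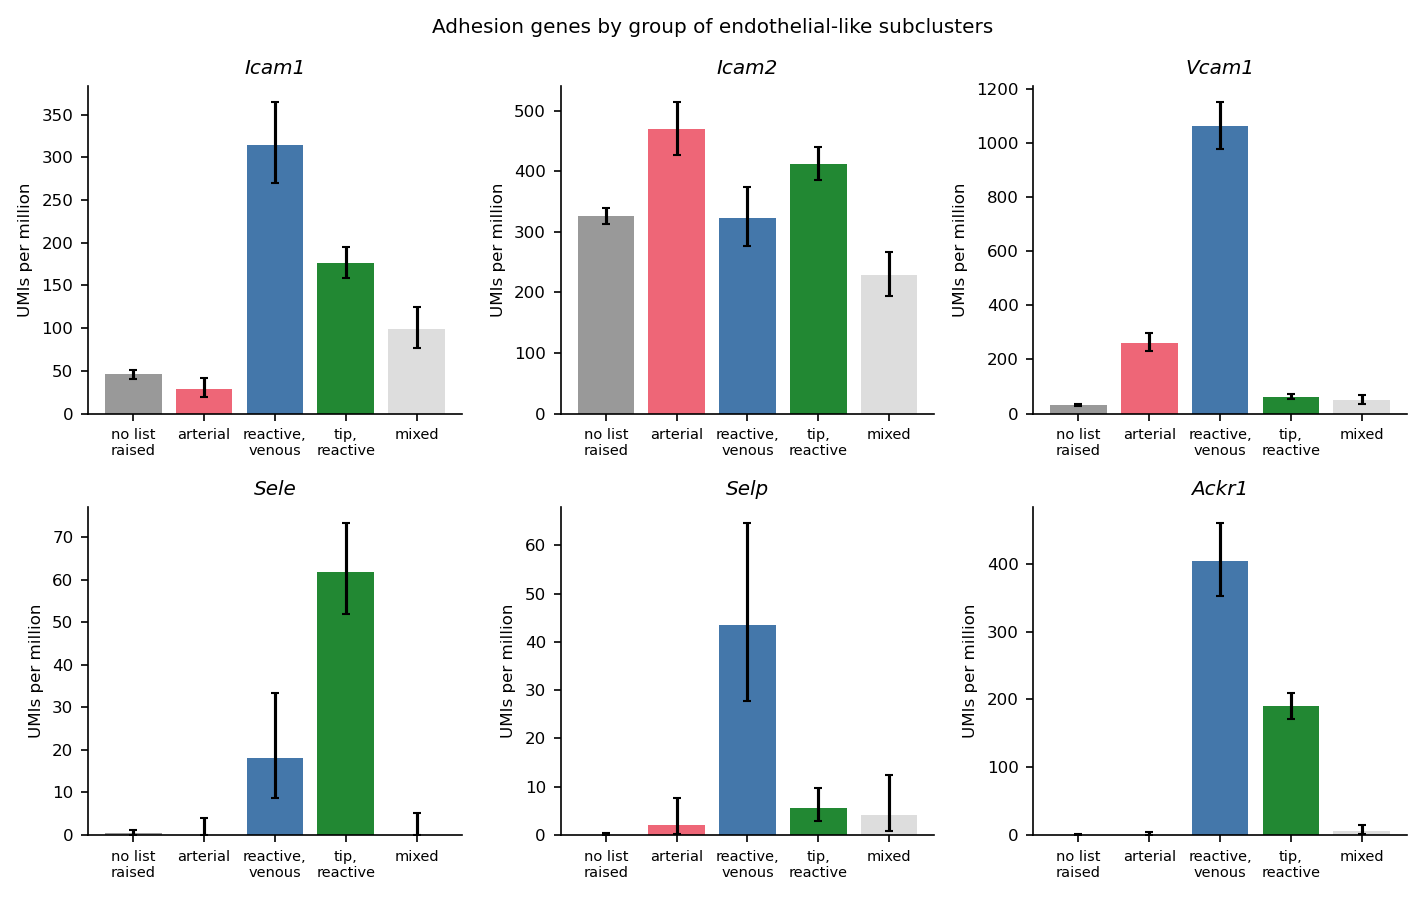
Levels of the 6 vascular genes in groups of endothelial-like subclusters, in CPM (linear axes from 0) with 95% Poisson intervals. Vcam1 (1064), Icam1 (315) and Ackr1 (403.6) are highest in the reactive and venous group, Sele (61.9) in the tip and reactive group, and Icam2 is present in all groups.

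At the level of single endothelial-like cells these genes were often found together, although deeper cells show more genes. Of the 53 cells with an Ackr1 UMI, 75.5% also had Vcam1 (61.7 to 86.2) and 60.4% Icam1 (46.0 to 73.6), against 7.17% and 13.1% of the 2610 cells without it. The former had a median depth of 5940 UMIs and the latter of 3970. At a fixed depth of 1000 UMIs per cell, the Vcam1 shares were 25.0% of 28 cells (10.7 to 44.9) and 3.38% of 2635 cells (2.72 to 4.14), whose intervals did not overlap. Of the 37 cells with Sele, 75.7% had Icam1 and 35.1% had Ackr1, against 13.2% and 1.52% of the cells without Sele. At fixed depth 13 cells had Sele. Icam1 was found in 46.2% of them (19.2 to 74.9), against 5.02% of the 2650 others (4.22 to 5.92). Ackr1 was found in 23.1% (5.04 to 53.8), against 0.943% (0.611 to 1.39). The Icam1 share of cells with Ackr1 was 21.4% at that depth (8.30 to 41.0), against 5.05% (4.24 to 5.95). Libraries 4 and 6 held 98.0% of the endothelial Sele UMIs and 92.3% of those of Ackr1. These shares therefore cannot be told apart from library. Icam2 differed less, at 83.0% of cells with and 68.8% of cells without Ackr1, and at fixed depth the order turned, at 21.4% (8.30 to 41.0) and 29.1% (27.4 to 30.9), with overlapping intervals.

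Mural-like cells, that is pericyte-like and smooth muscle-like cells together, had little of the endothelial ligands. Their Icam1 level was 18.3 CPM, 0.217 times the endothelial level (0.174 to 0.267), and Vcam1 was 4.86, 0.0462 times (0.0301 to 0.0681). Part of this small amount sat in subclusters that carried RNA of other cells. Subcluster 6, led by microglial genes and with 52.1% called doublets, had Icam1 at 136, and subcluster 8, led by endothelial genes, with 44.1% called doublets, held Sele at 20.85 and Ackr1 at 45.2. In subclusters 0, 1 and 3, the 3 largest of pericyte-like cells, Icam1 was 3.32, 2.66 and 0 CPM. Of the 10 genes, 1 was at least 4-fold higher in mural-like cells (6.83% of all genes) and 7 at least 4-fold lower (22% of all genes), among them Selp and Itgal without a UMI. The median ratio was 0.118 over the 10 genes and 0.851 over all genes tested. From the lists of related genes given below, 4 of 14 matrix and platelet integrin chains were at least 4-fold higher in mural-like cells and 3 lower, and of 6 other leukocyte integrin chains none was higher and 5 were lower.

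The gene that was higher was Itga4. Pericyte-like cells had the highest Itga4 level of all classes, 268 CPM (252 to 286), above T and NK lymphocyte-like (193.8), B lymphocyte-like (189), monocyte-derived macrophage-like (90.9) and perivascular macrophage-like cells (88.5). The intervals of the 2 lymphocyte classes overlap, as do those of the 2 macrophage classes, and the B lymphocyte-like interval, 131 to 264, also overlaps the one of pericyte-like cells. An Itga4 UMI was found in 54.8% of pericyte-like cells (51.5 to 58.2) and in 28.8% of smooth muscle-like cells, against 0.667% of microglia-like cells. Mural-like cells had 18.6 times the level of all other cells (17.1 to 20.3). Libraries 1 to 6 gave ratios of 55.56, 30.24, 44.2, 11.98, 23.31 and 7.904, a wider spread than the interval. The Itga4 level in pericyte-like cells was 281, 302, 267, 232, 376.5 and 222 in libraries 1 to 6. All 6 libraries lay above 200, with library 5 highest and libraries 4 and 6 lowest. Subclusters 0, 1 and 3 of these cells had 300.2, 320.2 and 431 CPM, with called doublets under 1% in each.

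A subcluster of mostly pericyte-like cells had less Itga4 than the other pericyte-like cells. Subcluster 5, led by Il11, Saa3 and Ccl11, had 56 cells, 22 from library 4 and 34 from library 6. Its Itga4 level was 104 CPM, 0.368 times that of the other pericyte-like cells (0.250 to 0.523). Without this subcluster, the pericyte-like cells of libraries 4 and 6 stood at 265.4 and 268.5 CPM, above the class levels of these libraries given earlier. Within library 4 the ratio was 0.212 (0.0766 to 0.472, from 6 UMIs) and within library 6 it was 0.482 (0.300 to 0.750), so both libraries gave the lower level. Smooth muscle-like subcluster 2 was lower still, at 55.0.

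**Figure D4:**
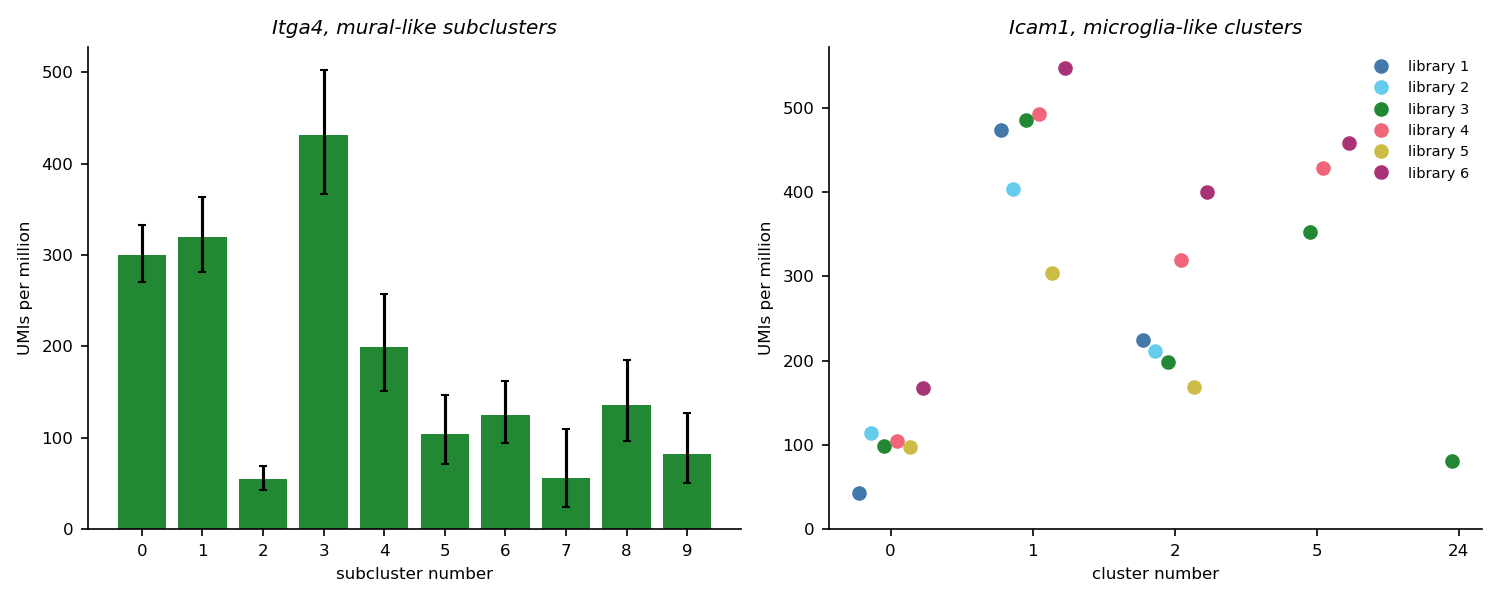
Left: Itga4 in the 10 mural-like subclusters, in CPM with 95% Poisson intervals; the large subclusters 0, 1 and 3 lie at 300.2 to 431 and the Il11-led subcluster 5 at 104. Right: Icam1 in the 5 microglia-like clusters, 1 point for each library with 20 or more cells; cluster 0 lies lowest among the 4 large clusters in every library.

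Microglia-like cells differed among themselves in Icam1. Cluster 0 (2348 cells), led by hemoglobin genes, Gpr34 and P2ry12, had 103 CPM. Cluster 2 (2037 cells, led by Gpr34 and P2ry12) had 226, cluster 1 (2196 cells, led by Cd83) had 448, and cluster 5 (1316 cells, led by the chemokines Ccl12 and Cxcl10 and by Spp1) had 437. Cluster 1 exceeded cluster 0 in each of the 6 libraries, from 303.5 against 97.4 in library 5 to 473 against 43.3 in library 1. Hemoglobin genes stood at 5334 CPM in cluster 0 and at 21.6 to 37.9 in clusters 1, 2 and 5, and their part in the Icam1 difference was not tested. Itgam went the other way, at 646 in cluster 0 and 482 in cluster 1. An unnamed cluster of 180 cells led by Spp1, Lpl and Mmp12, present only in libraries 4 and 6, had Icam1 at 163 and Itgam at 205.

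The integrin chains separated the immune classes. Itgal, the LFA-1 alpha chain, was highest in neutrophil-like cells at 158 CPM (129.8 to 191), followed by T and NK lymphocyte-like (102, 75.7 to 134.5) and monocyte-derived macrophage-like cells (67.4, 58.9 to 76.7). Neighbours in this order overlap in their intervals, narrowly. Microglia-like cells had 15 Itgal UMIs in all, a level of 0.344, so the blood leukocyte-like classes together (neutrophil-like, lymphocyte-like and monocyte-derived macrophage-like cells) stood 239.7 times higher (143.5 to 432). Pericyte-like and smooth muscle-like cells had no Itgal UMI, which by the same floor allows up to 0.338% and 1.17% of cells to hold one. The ratio was 663.5 without library 6 and 137.9 without library 3. Libraries 2 and 5 had no microglial Itgal UMI.

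Itgam had another order. Microglia-like cells were highest at 559 (552 to 566), then neutrophil-like (426.5) and monocyte-derived macrophage-like cells (403.5) with overlapping intervals, and then, among the named classes, perivascular macrophage-like cells (169). The unnamed cells had 238.9 (219 to 260). An Itgam UMI was found in 87.9% of microglia-like cells and 86.7% of monocyte-derived macrophage-like cells, and in 1.47% of endothelial-like cells. The blood leukocyte-like level was 0.637 times the microglial one (0.606 to 0.669), and it was below 1 in all 6 libraries (0.148 to 0.680). The 0.148 of library 1 rests on 1 blood leukocyte-like UMI, and that library had no neutrophil-like or monocyte-derived macrophage-like cell. Library 2 gave 0.263 from 19 such UMIs, with 27 T and NK lymphocyte-like and 14 neutrophil-like cells. Microglial Itgam was 376.5, 397, 595, 573, 523 and 550.2 in libraries 1 to 6, lowest in libraries 1 and 2.

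Itgb2, the shared beta chain, had similar levels in both. Blood leukocyte-like cells had 191 and microglia-like cells 179 CPM, a ratio of 1.07 whose interval (0.997 to 1.15) includes 1 and which was 0.993 without library 6. The ratio was above 1 in 4 libraries and below 1 in 2, from 0.751 to 1.73, and in library 1 it rests on 5 blood leukocyte-like UMIs. Neutrophil-like cells had 238.9 (204 to 278.5) and monocyte-derived macrophage-like cells 196.5 (182 to 212), with overlapping intervals, while lymphocyte-like cells had 142.8 (T and NK) and 38.9 (B). In microglia-like cells library 6 had the lowest Itgb2 level, 112, and the other 5 libraries had 157.5 to 201.

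Itga4 differed widely between the immune classes. T and NK lymphocyte-like and B lymphocyte-like cells had 193.8 and 189 CPM, neutrophil-like cells 38.1, and microglia-like cells 1.38, so that the blood leukocyte-like level was 70.9 times the microglial one (54.1 to 94.4). Without library 6 this ratio was 121.4 and without library 4 it was 48.5. Among monocyte-derived macrophage-like cells, library 4 had 176 (122 cells) and library 6 had 38.1 (236 cells). The subclusters in this class differed too. Subcluster 4, led by Chil3 and Plac8 and mostly of library 4, had 245.5, and subcluster 0, led by Ttr and Arg1 and mostly of library 6, had 51.9. Subcluster 11, with 36 of its 37 cells in this class, was highest at 352, with 12 cells from library 4 and 13 from library 6.

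**Figure D5:**
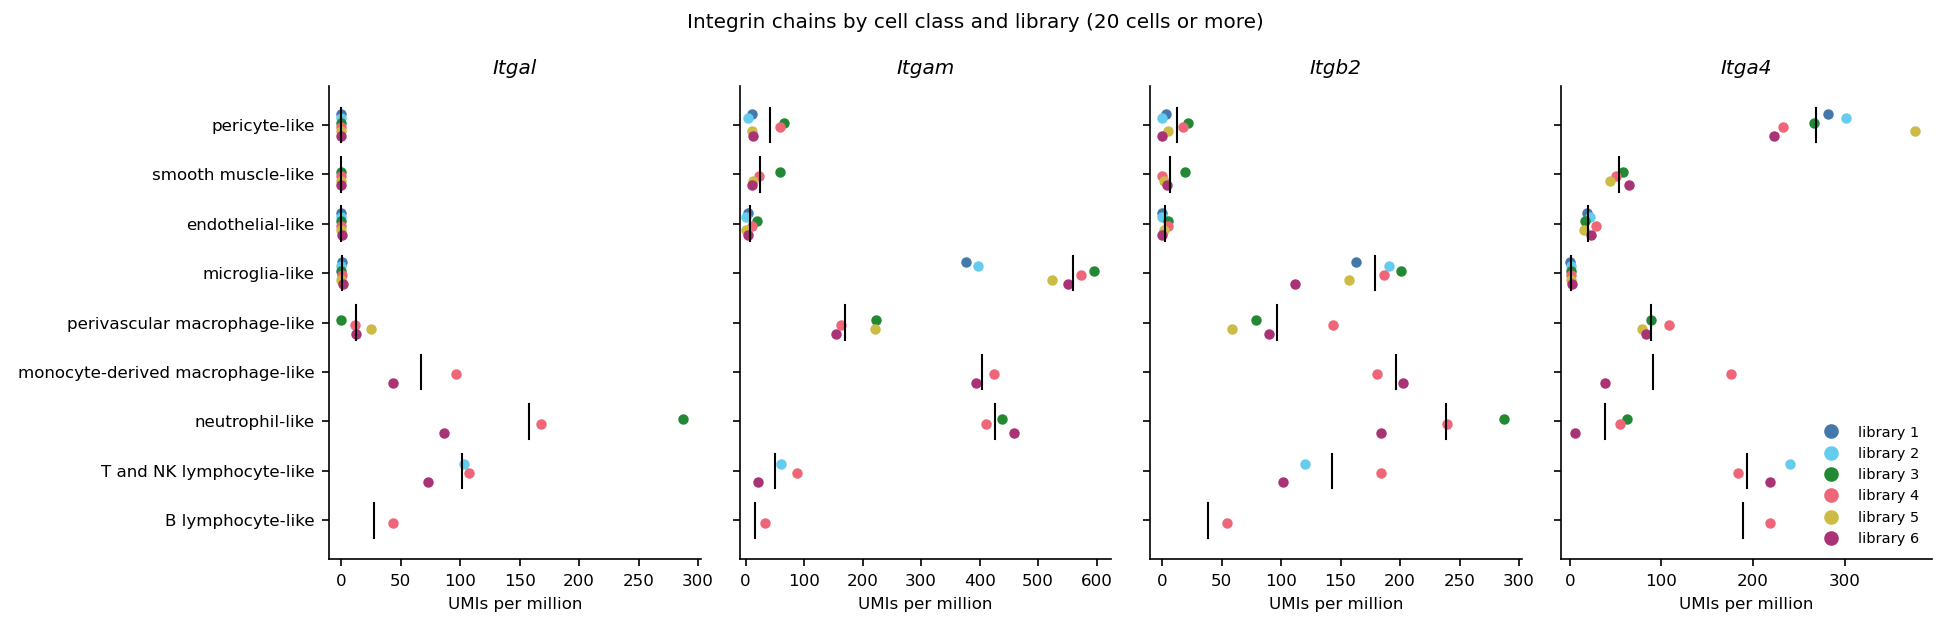
Itgal, Itgam, Itgb2 and Itga4 in 9 cell classes, in CPM; coloured points are libraries with 20 or more cells of the class and black lines the pooled level. Itga4 in pericyte-like cells lies between 222 and 376.5 in all 6 libraries, and Itgam in microglia-like cells between 376.5 and 595.

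Immune subclusters showed where the classes were not uniform. The perivascular macrophage-like subcluster 5 (69 cells, led by Pf4, with Lyve1, Cd163 and Mrc1 among its leading genes) had Vcam1 at 1101 CPM (996 to 1214) in 65.2% of cells, and the dendritic cell-like subcluster 1 (118 cells, led by Ccr7 and Cd209a) had no Vcam1 UMI. Selp was 12.9 (7.53 to 20.7) in the dendritic cell-like subcluster and 0 (0 to 10.1) in the perivascular macrophage-like one, with overlapping intervals. In the same order Icam1 was 95.1 and 150.6, Itgam 140.7 and 79.4, Itgb2 103.4 and 57.5, and Itga4 87.5 and 101.3. Subcluster 9, unnamed and with 43 cells of the same class, had Icam1 at 131, Itgam at 256, Itgb2 at 113 and Itga4 at 71.5. Most neutrophil-like cells fell in 2 subclusters that shared Itgam, at 431 and 493, but differed in Icam1. Subcluster 7 (53 cells) had Icam1 at 310.7 (231 to 408.5) and subcluster 2 (108 cells) had 34.6 (18.4 to 59.1). Libraries 4 and 6 gave 22 and 28 cells of subcluster 7 and 59 and 12 cells of subcluster 2, so their library make-up differed too. An unnamed subcluster of 37 cells, led by Fabp4, Spic and Ace, had the highest Itgal level of all immune subclusters, 415, with Itga4 at 352 and Itgb2 at 392.

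In blood leukocyte-like cells, 3 of the 10 genes were at least 4-fold higher than in all other cells (Itgal 143.8, Selp 6.65 and Itga4 6.01 times), where 5% of all genes were. Vcam1 and Sele were at least 4-fold lower, as were 34.5% of all genes. The median ratio was 1.05 over the 10 genes and 0.436 over all genes tested.

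Other genes of leukocyte adhesion were counted from fixed lists in the same way, without a test. Of 10 junctional molecules of diapedesis, 3 were at least 4-fold higher in endothelial-like cells and 1 was lower, with a list median of 1.997 times. Over all genes 6.61% were higher and 27.9% lower, the background for each endothelial count here. Cdh5, the endothelial cadherin, was 113.9 times higher and Esam 31.1 times, and Jam3 was 0.0960 times. Cdh5, counted among these 3, and Pecam1 below were markers that named the endothelial class, so their high ratios were set by the naming. Of 11 selectin ligands and carriers, 2 were higher (Podxl 122.4 and Cd34 10.8 times) and 4 lower. Of 6 other immunoglobulin-family molecules with enough UMIs, Pecam1 was 48.7 times higher, Cd47 was level at 1.09 times, and Sirpa was 0.0227 times. Among atypical chemokine receptors Ackr3, a receptor of Cxcl12, was 6.67 times higher, while Ccrl2 was 0.204 times. None of 9 inducible NF-kB targets was 4-fold higher in endothelial-like cells. Nfkbia, the inhibitor that NF-kB itself induces, was highest of them at 1.95 times, followed by Nfkb2 at 1.202 times, and Ccl2 was lowest at 0.107 times.

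Integrin chains and their partners were counted likewise. Of 6 other leukocyte chains, 3 were at least 4-fold higher in blood leukocyte-like cells, among them Itgb7 at 20.7 times and Itgb2l with 25 of its 26 UMIs there, and Itgad was 0.0307 times. Itgb2l thus reached the needed 20 UMIs only through these cells. Over all genes 5% were higher and 34.5% lower in blood leukocyte-like cells. The same list had no chain at least 4-fold higher in endothelial-like cells, where Itgb1, the beta chain of VLA-4, was 1.96 times and Itgae 0.0799 times, and Itgb2l had no UMI. Of 14 matrix and platelet chains, 3 were higher in endothelial-like cells (Itga3 22.6 and Itga2b 20.35 times as the highest) and 7 were lower, against 6.61% and 27.9% of all genes, and Itga8 had no endothelial UMI. In blood leukocyte-like cells none of the 14 was higher and 8 were lower, against 5% and 34.5% of all genes, with Itga5 at 1.68, Itgav at 0.480 and no UMI of Itga10. Of 12 integrin activators, Rasgrp2, an exchange factor of Rap1, was 6.33 times and Rap1b 1.25 times in endothelial-like cells, where Skap1 had no UMI. In blood leukocyte-like cells Skap1, a T cell adaptor, had 149 of its 153 UMIs, Tln1 was 2.01 times and Apbb1ip lowest at 0.643 times. Filip1 and Cttn led the anchor proteins in endothelial-like cells at 9.24 and 4.63 times and Ezr was lowest at 0.524 times. Ezr and Flna led in blood leukocyte-like cells at 3.88 and 3.62 times, and Filip1 was at 0.0376 times.

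The remaining lists gave these leading genes in blood leukocyte-like cells. Among selectin ligands and carriers Cd44, a hyaluronan receptor, was 66.5 times higher, with Cd34 lowest at 0.0909 times. Of the immunoglobulin family Alcam was 2.44 and Cd47 1.08 times, and Mcam was 0.0498 times. Cd226 was 29.95 and Pvr, its ligand, 2.30 times among junctional molecules, and Jam3 was 0.0256 times. Ccrl2 was 4.48 and Ackr3 0.0544 times. Of 9 NF-kB targets Cxcl1, a neutrophil chemokine, was 23.3 times higher, Birc3 was 3.82 times, and the lowest was Nfkb1 at 1.34 times.

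The genes most like each of the 10 were found by Pearson correlation of log2(CPM + 10) over 51 pairs of class and library with 20 or more cells. The points share libraries and cell classes, so these values describe and test nothing. Itgb2 was most like Cd53 (r = 0.979), Pik3r5 (0.958) and Ptprc (0.957), the last of which encodes CD45. Itgam was most like Fcgr3 (0.963), Nckap1l (0.961) and Fcer1g (0.960). Itgal was close to Slfn1 (0.914) and Pstpip1 (0.911), and Icam2 like AU021092 (0.968), Cyyr1 (0.955) and the angiopoietin receptor gene Tek (0.946). Tek was itself a marker that named the endothelial class. Icam1 was most like Skil (0.918), Arhgap25 (0.901) and Fes (0.899), and Itga4 like Mndal (0.909), Ifi203 (0.869) and Slc1a5 (0.821). Vcam1 had no close match, with Lmo1 (0.822), Pld2 (0.788) and Lxn (0.755). For the sparse genes the nearest were Ackr1 (0.895), Scgb3a1 (0.763) and Meox1 (0.718) for Sele, Scgb3a1 (0.757), Meox1 (0.697) and Ace (0.690) for Ackr1, and Stx11 (0.863), Il1r2 (0.80) and Osgin1 (0.799) for Selp, each resting on the few pairs in which they were counted.

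RNA outside cells was present for most of these genes. In barcodes with 1 to 50 UMIs, pooled over libraries, Itgam stood at 121.8 CPM, Icam1 at 81.3, Itgb2 at 52.2, Vcam1 at 33.7 and Icam2 at 26.4, and Itga4, Ackr1, Itgal, Sele and Selp at 6.92, 5.30, 2.43, 0.437 and 0.312. Of the low levels, Itgam at 8.39 in endothelial-like cells and Icam2 at 1.29 in microglia-like cells were below the levels of these genes outside cells. So were Icam1 (18.3) and Vcam1 (4.86) in mural-like cells and Icam1 (71.2) in monocyte-derived macrophage-like cells. The same held for Icam2 (22.4) in T and NK lymphocyte-like cells, Itgb2 (38.9) in B lymphocyte-like cells and Icam1 (28.5) in the arterial subcluster. Icam1 (34.6) in neutrophil-like subcluster 2 and Itgam (79.4) in perivascular macrophage-like subcluster 5 also lay below. In libraries 3 and 5 endothelial Icam1 was also below the level outside cells (120 and 63.0). In the other libraries it was above, in library 4 only narrowly. Sele in pericyte-like cells (1.97), Ackr1 in monocyte-derived macrophage-like cells (6.77) and Itga4 in neuroblast-like cells (8.77) were above the pooled levels outside cells, each with a limit. Without called doublets, pericyte-like Sele was 0.324 from 1 UMI, below its level outside cells. All 23 Ackr1 UMIs of the macrophage-like class lay in 1 cell. Most of that class came from libraries 4 and 6, where Ackr1 outside cells was 5.66 and 22.3. The interval of neuroblast-like Itga4 (5.62 to 13.05) includes its level outside cells.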

How the data were processed

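The authors prepared 10x 3' libraries and made the counts with Cell Ranger 5 on mm10, per the labels. They deposited 1 matrix of UMI counts, whole numbers per gene and barcode, unfiltered over 40769280 barcodes. Their methods state that an aggregation step equalised depth between libraries, which can lower the counts of deeper libraries. No column belongs to another series. The 10 genes, the lists and the comparisons were chosen with earlier results of these data known.

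A barcode was kept as a cell where its UMIs reached 0.1 times a library's upper depth (percentile 99 among its top 3000 barcodes), with 200 or more features and at most 10% mitochondrial UMIs (17357 cells; 19864 without the depth rule). Of their barcode sequences, 26 occurred in more than 1 library (52 cells). Counts were log-normalised at a scale of 10000, and 2000 variable genes (without the 10 genes and, after a first clustering split microglia by them, without hemoglobin genes), 30 components (15 for subclusters), 20 neighbours and Leiden clustering at resolution 0.8 (leidenalg 0.10.2) followed. Scrublet (scanpy 1.11.5) called 1.895% of cells doublets, which were kept unless stated. A cluster took the class whose markers scored highest, with 3 or more of them raised at least 2-fold over the median cluster. The rule on doublets (at most 50%), the lead of 1 on the log2 scale, the merging of T and NK lymphocytes, the omission of the erythroid list, the limits for endothelial groups (1.5 and 2.5 on the log2 scale) and 3 of the ratios were set after seeing the data. These 3 ratios were Itga4 in mural-like against all other cells, Icam1 in microglia-like against endothelial-like cells and Vcam1 in astrocyte-like against endothelial-like cells. The named genes were the 10 genes, the 2 highest and the lowest of each list, and the 3 most alike; 1 gene that this rule names is not reported here. Genes counted against a class needed 20 UMIs, and those compared for likeness 200. The floor for a count of 0 was 3 counts. The fold calls were checked on simulated counts. Nothing was tested across groups, because no source maps the library numbers. Gene positions came from GENCODE vM21, and promoters from RefSeq.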

Additional observations from a re-analysis of the deposited data

How the results depend on the processing

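No paired analysis was possible because the library numbers carry no group and no result comes from a test. With 1 library per group, the spread between animals is unknown, and sparse genes (Sele, Selp, Ackr1) rest on few cells. The settings with unnamed cells left out, hemoglobin genes kept, libraries 4 and 6 both left out and the dendritic cell-like subcluster counted in were added after seeing the data. Over all settings other than leaving out a single library, these added ones included, 95 values stayed within the counting interval of the reported ratio, 28 moved beyond it and 2 changed sides of 1, and the cause of the changes was not tested. For endothelial-like against all other cells, the mean of the cells' own CPM gave 0.4376 (Icam1), 126.7 (Icam2), 2.428 (Vcam1) and 61.99 (Ackr1), and cells thinned to 1000 UMIs gave 0.4427 (Icam1), 125.2 (Icam2), 2.224 (Vcam1) and 3.449 (Selp). Clustering at resolution 0.4 gave 0.5761 (Icam1) and 121.4 (Icam2). Removing called doublets gave 169.2 (Icam2), 1151 (Sele) and 119.2 (Ackr1), the stated filters alone 120 (Icam2), and leaving out unnamed cells 126.8 (Icam2). Without libraries 4 and 6 the Ackr1 ratio was 21.68, and Sele had 3 endothelial UMIs against 0. For blood leukocyte-like against microglia-like cells, Itgb2 turned to 0.9483 when thinned and to 0.9648 with the dendritic cell-like subcluster counted in, Itgam was 0.5788 by the mean of cells and 0.5536 with that subcluster, and Itga4 was 95.37 when thinned. For mural-like against endothelial-like cells, Icam1 was 0.1386 with the stated filters alone, 0.1333 by the mean of cells and 0.06977 when thinned, and Vcam1 was 0.02936 at resolution 1.2 and 0.01097 when thinned. Mural Itga4 was 21.52 by the mean of cells. Icam1 in microglia-like against endothelial-like cells was 3.319 at resolution 0.4, and Vcam1 in astrocyte-like against endothelial-like cells was 2.554 by the mean of cells and 2.756 when thinned.

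Leaving out each library in turn gave ranges for endothelial-like against all other cells of 0.4619 to 0.5933 (Icam1), 94.45 to 112.7 (Icam2), 2.818 to 3.269 (Vcam1), 132.3 to 345.3 (Sele), 4.2 to 12.72 (Selp) and 23.1 to 121.6 (Ackr1). For blood leukocyte-like against microglia-like cells they were 137.9 to 663.5 (Itgal), 0.5973 to 0.6715 (Itgam), 0.9926 to 1.154 (Itgb2, below 1 without library 6) and 48.47 to 121.4 (Itga4). For mural-like against endothelial-like cells they were 0.1753 to 0.2713 (Icam1) and 0.03194 to 0.05325 (Vcam1), and mural Itga4 ranged from 14.17 to 23.37. Icam1 in microglia-like against endothelial-like cells ranged from 3.346 to 4.151, and Vcam1 in astrocyte-like against endothelial-like cells from 2.023 to 2.312.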
